A study of Mus musculus with 3 samples.

Results

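The histone cluster genes are the genes of the Hist1, Hist2, Hist3 and Hist4 clusters, which encode the H1, H2A, H2B, H3 and H4 proteins that package DNA. The members were the genes of the deposited gene table whose name starts with Hist1h, Hist2h, Hist3h or Hist4h. These were 50 of the 16697 genes to which the authors assigned a region of binding by SRF, the serum response factor, and they had 30 of the 31850 merged regions. The genes lie on mouse chromosomes 13 (Hist1), 3 (Hist2), 11 (Hist3) and 6 (Hist4).

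The cluster histone genes are replication-dependent. They are transcribed mainly in S phase, and their mRNAs end in a stem-loop bound by SLBP in place of a poly(A) tail. Core histones H2A, H2B, H3 and H4 form the nucleosome, and H1 binds the DNA between nucleosomes. SRF binds the CArG box, a run of A and T bases between CC and GG, and is known for actin cytoskeleton and immediate early genes.

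SRF-bound DNA was immunoprecipitated from whole cornea of untreated mice on a mixed background, aged about 8 weeks, and sequenced. The mutant library came from Dstn-corn1 mice, whose allele leaves no functional destrin, an actin-depolymerizing protein. The wildtype library is known as such from its title alone, since its growth protocol names the mutant too, and an input library of unstated genotype was not used here. Genotypes are compared between single libraries, with no test and no replicate spread, and the number of animals pooled was not given in the sources used here. Values are deposited peak heights, the top of the signal within a region, and their depth and scaling are unknown. A region was called in a library where the authors listed an interval for it there. The 3 regions assigned to Dstn were listed at 0 in the mutant library and at 35, 11 and 13 in the wildtype library. Of 4 genes known in cornea, Krt12 and Pax6 had assigned regions and Aldh3a1 and Kera had none, which is no measure of expression.

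Sequences upstream of histone gene starts are shown first, because the distance of SRF regions from these starts differed between histone classes. They come from the RefSeq promoter table (GRCm38.p6, the assembly that mm10 names), in which 62 histone cluster genes had 63 windows from 250 bases before to 50 bases after the start. Of the 50 members, 45 had a window. A region overlapped 10 of the 63 windows (15.9%) and 23.2% of all 32851 windows in the table. Capitals mark the CArG box, the TATA box letters TATAAA, the CCAAT box, the octamer ATTTGCAT and the H4 letters GGTCCG on either strand, so that the CCAAT box may read as ATTGG. The upstream parts of 4 H4 genes whose start lay under a region are Hist1h4d (chr13:23581448-23581567, plus strand), Hist1h4f (chr13:23551669-23551788, minus strand), Hist1h4i (chr13:22041363-22041482, minus strand) and Hist4h4 (chr6:136804432-136804551, minus strand). The letters GGTCCG were picked after these sequences had been read.
Hist1h4d: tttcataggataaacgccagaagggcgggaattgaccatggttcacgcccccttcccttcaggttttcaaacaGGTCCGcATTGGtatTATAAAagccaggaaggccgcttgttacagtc
Hist1h4f: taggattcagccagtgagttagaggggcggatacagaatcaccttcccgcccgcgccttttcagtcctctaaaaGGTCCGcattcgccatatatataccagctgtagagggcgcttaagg
Hist1h4i: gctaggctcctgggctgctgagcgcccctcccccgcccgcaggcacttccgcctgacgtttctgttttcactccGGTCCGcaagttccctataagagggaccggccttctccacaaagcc
Hist4h4: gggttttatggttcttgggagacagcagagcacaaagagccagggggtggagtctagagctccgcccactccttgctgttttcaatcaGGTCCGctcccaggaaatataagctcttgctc

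A linker histone gene with a region over its start, Hist1h1c (chr13:23738687-23738806, plus strand), held CCAAT and no CArG box.
Hist1h1c: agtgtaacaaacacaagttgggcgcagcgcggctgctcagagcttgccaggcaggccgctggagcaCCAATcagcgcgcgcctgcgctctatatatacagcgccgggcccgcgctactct

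The members with a CArG box beside a region were Hist1h2bb (chr13:23746484-23746733, plus strand) and Hist2h2ac (chr3:96220881-96221000, minus strand).
Hist1h2bb: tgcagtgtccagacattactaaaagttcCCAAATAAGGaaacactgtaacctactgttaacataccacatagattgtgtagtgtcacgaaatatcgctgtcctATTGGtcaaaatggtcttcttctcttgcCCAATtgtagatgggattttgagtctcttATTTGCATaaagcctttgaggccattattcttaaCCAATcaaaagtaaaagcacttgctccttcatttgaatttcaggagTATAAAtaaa
Hist2h2ac: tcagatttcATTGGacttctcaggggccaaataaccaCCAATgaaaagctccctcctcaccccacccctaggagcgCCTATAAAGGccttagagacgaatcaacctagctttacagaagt

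A CArG box on either strand stood in 4 of the 63 histone windows (6.35%) and in 1.63% of the 32851 windows of the table. Of the 4, the Hist1h2an and Hist1h2bp windows hold the same site (chr13:21787274-21787283), read from both sides of a divergent gene pair, and no region lay over it. In Hist1h2an and Hist2h2ac the letters were CCTATAAAGG, which contain TATAAA. The TATAAA letters stood in 55.6% of histone windows and 13.6% of all windows, CCAAT in 85.7% and 37.4%, and ATTTGCAT, the octamer bound by POU factors, in 22.2% and 1.74%. Every H1, H2A, H2B and H3 window had CCAAT, against 3 of 12 H4 windows. The octamer stood in 7 of 18 H2A and 7 of 17 H2B windows and in no H1, H3 or H4 window. GGTCCG stood in 11 of 12 H4 windows, in 1 H2B window and in 1 H3 window (20.6% of histone windows together), and in 8.25% of all windows. A match describes these letters and is not a binding site.

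The histone genes had intervals about as often as other genes. The RefSeq gene table names 70 cluster genes, of which 20 had no assigned region. Of its 67 protein-coding cluster genes, 35 (52.2%) had an interval in the mutant library, against 49.6% of all 21900 protein-coding genes. In the wildtype library 43 of them (64.2%) had an interval, against 65.5% of all. Among the 50 members, 29 had an interval in both libraries, 15 in wildtype alone and 6 in mutant alone. The 6 were Hist1h1b, Hist1h3i, Hist1h2an and Hist1h2bp around a shared region, and Hist1h2ab and Hist1h3b at another. The same split over all genes is not given here. By regions, these were 2 of the 30 histone regions, and 670 of all 31850 regions were called in mutant alone.

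The members shared their regions. The 30 regions made 91 assignments to members, 25 regions served at least 2 members, and a region served up to 6. Members had 1 region (25 genes), 2 (13 genes), 3 (8 genes) or 4 (4 genes). Other genes were assigned as well at 13 regions, and 17 had histone cluster genes alone. A member's values are therefore not independent of its neighbours' values.

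Some cluster genes are near-identical copies. With the limited shifts tried, 10 of the genes with a window had one at least 95% identical to another histone window. Of these, 7 were among the 17 genes with a window and no region. Hist1h2ao and Hist1h2ap, both with no region, share a long identical stretch only at a larger shift and are not in these counts. The counts of copies are therefore lower bounds. Hist1h2bq and Hist1h2br were 100% identical, Hist1h4m and Hist1h4n 99.7%, and Hist2h3c1 (a member) and Hist2h3c2 (no region) 99.6%. How the authors placed reads that map to several copies was not given in the sources used here. Its part in the missing regions was not tested.

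Histone H4 genes, whose product pairs with H3 in the nucleosome core, were closest to SRF regions. All 8 H4 members had a region centre within 1 kb of their start, at 15 to 921 bp and a median of 72.5 bp. Distances of regions are to the deposited gene starts, which for some genes differ from the RefSeq starts of the printed sequences. For Hist1h4d these are 23581602 and 23581568. The closest were Hist1h4i (15 bp upstream), Hist1h4d (38 bp past the start), Hist1h4f (44 bp upstream), Hist1h4h (45 bp upstream) and Hist2h4 (100 bp upstream). Of the 13 H4 genes in the reference, these 8 are 61.5%, whereas 9 of the other 57 cluster genes (15.8%) had a region within 1 kb, as did 33.5% of all protein-coding genes. The class pattern was noticed in the values and is given with no test.

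Those H4 regions were low to moderate in height. The Hist1h4i region (chr13:22041146-22041588) reached 4 in mutant and 13 in wildtype, and the Hist1h4h region (chr13:23530823-23531175) 7 and 10. The Hist1h4d region (chr13:23581355-23581925) reached 11 and 24, and the Hist1h4f region (chr13:23551363-23552011) 18 and 32. The wildtype value was the higher at all 4, and the mutant library had a called interval only at Hist1h4f. The region beside Hist1h4j (chr13:21733981-21734654, 779 bp upstream) reached 19 and 35 and was called in both. The Hist4h4 region on chromosome 6 (chr6:136803884-136804640, 169 bp past the start) reached 13 and 17 (log2 ratio -0.36) and was also assigned to H2afj, a variant H2A gene, and Wbp11. In the printed H4 sequences GGTCCG lay 46 to 47 bases before the RefSeq start in Hist1h4d, Hist1h4f and Hist1h4i and 32 bases before it in Hist4h4. Its centre lay 12.5, 31.5 and 45.5 bp from the wildtype summit in Hist1h4d, Hist1h4f and Hist1h4i, and 148.5 bp in Hist4h4. In Hist1h4f, the only one of these with a mutant interval, it lay 79.5 bp from the mutant summit.

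The Hist2h4 region went the other way from most. At chr3:96262944-96263891 it reached 19 in mutant and 17 in wildtype (log2 ratio 0.15), and it was called in both. The heights differ by 2, and as deposited 3 of the 30 histone regions were higher in mutant.

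**Figure D1:**
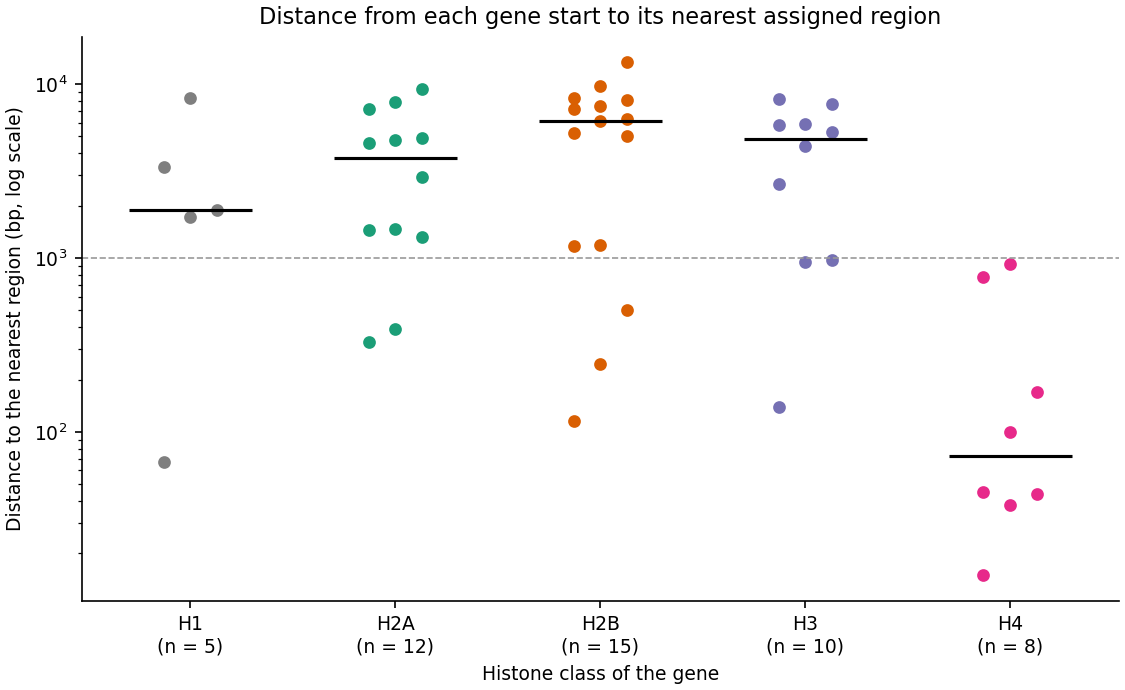
Distance from the start of each of the 50 members to the centre of its nearest assigned region (bp, log scale) by histone class, with a black line at the median and a dashed line at 1 kb. All 8 H4 genes lie under 1 kb, and the medians of the other classes lie between 1892 and 6105 bp.

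Genes of the other core histones mostly had regions some kilobases away. The median distance was 3755.5 bp for the 12 H2A members, 6105 bp for the 15 H2B members and 4848 bp for the 10 H3 members, with 2, 3 and 3 genes within 1 kb. Hist1h2bc was the only member with every region over 10 kb from its start, at 13329 bp from the nearer. Hist1h3e, an H3 gene, had neighbouring regions 139 and 983 bp upstream. The nearer (chr13:23562289-23562719) reached 10 and 20 and was called in wildtype alone, and the farther (chr13:23563041-23563655) reached 17 and 26 and was called in both.

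The linker histone genes, 5 members, had a median distance of 1892 bp. Hist1h1c had 4 assigned regions, the most of any H1 gene. The region over its start (chr13:23738613-23739136, centre 67 bp past it) reached 11 in mutant and 28 in wildtype (log2 ratio -1.27) and was called in both. The printed CCAAT of Hist1h1c lay 29.0 bp from the summit of either library. Its next region (chr13:23739363-23740060, 904 bp past the start) reached 10 and 17, and its highest (chr13:23732367-23732935, 6156 bp upstream) reached 26 and 46. Wildtype was higher at these 3, by log2 ratios of -0.71 to -1.27. The fourth lay 7682 bp past the start, upstream of Hist1h2bb, and went the other way, with 14 in mutant and 12 in wildtype. Hist1h1e had a single region 8362 bp upstream (chr13:23630659-23631182) of 12 and 29, and Hist1h1t, the testis linker histone, shared its regions with Hist1h4c.

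Over all 30 regions the wildtype library was mostly the higher, as it was genome-wide. The median height was 15.5 in mutant (range 4 to 43) and 27 in wildtype (range 9 to 94), against 13 and 28 over all regions. After adding 1 to each height, the log2 ratio of mutant to wildtype had a median of -0.84 (order-statistic 95% interval -1.0 to -0.58, over regions), against -1.10 for all regions. At least 2-fold lower in mutant were 10 of 30 regions (33.3%, exact binomial 95% interval 17.3 to 52.8%), against 59.0% of all regions. A single histone region was at least 2-fold higher, against 0.414% of all. The mutant value was the higher at 3 of 30 histone regions and at 3.69% of all regions. These intervals cover counting over regions that share genes and not variation between animals. The direction rests on the heights as deposited: scaling the mutant library by 2.10, so that regions called in both libraries have equal medians, moved the median of all regions by 1.01 and turned the histone median to 0.17. The histone regions lay 0.26 log2 units above all regions. The gap was 0.26 after this scaling too, since a common factor moves every ratio by nearly the same amount. Library differences other than a common factor were not tested. By the average value of a region the medians were closer, at -0.765 for histone and -0.829 for all regions.

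The shares of regions called stood near those over all regions when distance from a start was left aside. The mutant library had an interval at 16 of 30 histone regions (53.3%, 34.3 to 71.7%) and at 51.0% of all regions. The wildtype library had an interval at 28 of 30 (93.3%, 77.9 to 99.2%) and at 97.9% of all. Within 1 kb of a histone start the mutant library had an interval at 7 of 16 regions (43.8%). Of all regions within 1 kb of an assigned gene, it had one at 60.6%. Over 1 kb away it had one at 9 of 14 (64.3%), against 48.2% of all other regions and 50.3% of those with an assigned gene. Near and far, the wildtype shares were 87.5% and 100%, against 95.9% and 98.5% of all. Both libraries had an interval at 14 histone regions, wildtype alone at 14 and mutant alone at 2. Of all 31850 regions, these counts were 15587, 15593 and 670. At the 14 shared regions the 2 summits lay a median of 32 bp apart and at most 320 bp. The gaps took only the values 0, 16, 32, 48 and 320 bp. Any distance to a summit under 16 bp given here may therefore be below the step of the summits.

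**Figure D2:**
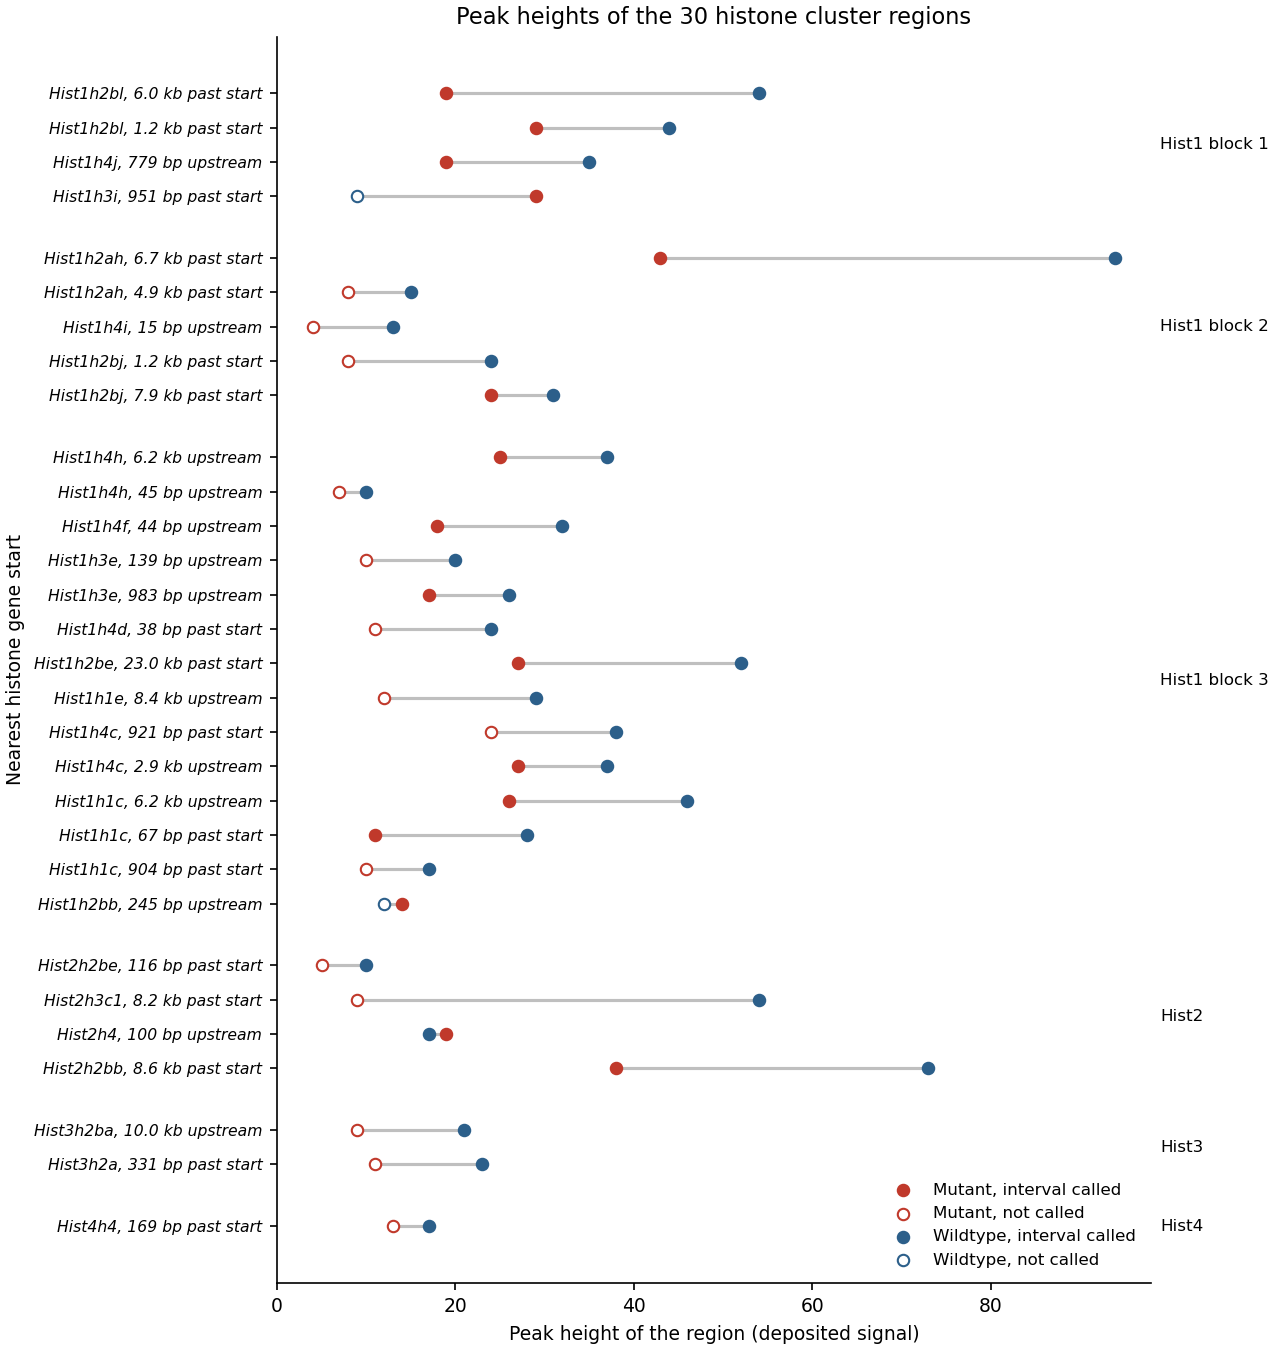
Peak height (deposited signal) of each of the 30 regions in the mutant (red) and wildtype (blue) library, filled where the library had a called interval, labelled by the nearest histone gene and grouped by block. As deposited, wildtype is higher at 27 regions (after scaling to a common median, mutant is higher at 21), and the Hist1h3i, Hist1h2bb and Hist2h4 regions are higher in mutant.

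Histone regions near a gene start were lower in height than farther ones, while the intervals of their median ratios overlapped. Within 1 kb of a histone start lay 16 of 30 regions (53.3%, 34.3 to 71.7%). Within 1 kb of any assigned gene lay 22.7% of all regions. These were 7234 of the 24263 regions that have an assigned gene, as every histone region has. The measures differ: the histone region 48 bp upstream of Rnf187 counts as farther, since only histone starts were used for it. The 16 near histone regions had median heights of 12 in mutant and 18.5 in wildtype. Their median log2 ratio was -0.75, beside -0.81 for all regions within 1 kb. The 14 farther histone regions had medians of 24.5 and 40.5 and a ratio of -0.92 (-1.46 to -0.55). All farther regions, which include those with no assigned gene, had a ratio of -1.18 and heights of 13 and 30. With regions of no assigned gene left out, the ratio was -1.15 and the heights 14 and 30. At least 2-fold lower in mutant were 4 of the 16 near regions (39.6% of all near regions) and 6 of the 14 farther ones. Of all farther regions 64.8% were, and of those with an assigned gene 62.7%. The histone medians lay 0.05 log2 units above that of all near regions and 0.26 above that of all farther ones. CpG islands overlapped 16 of the 30 histone regions (53.3%) and 23.0% of all. Histone regions with and without an island had median ratios of -0.83 and -0.84, and heights of 11 and 18.5 with an island and 21.5 and 37.5 without.

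**Figure D3:**
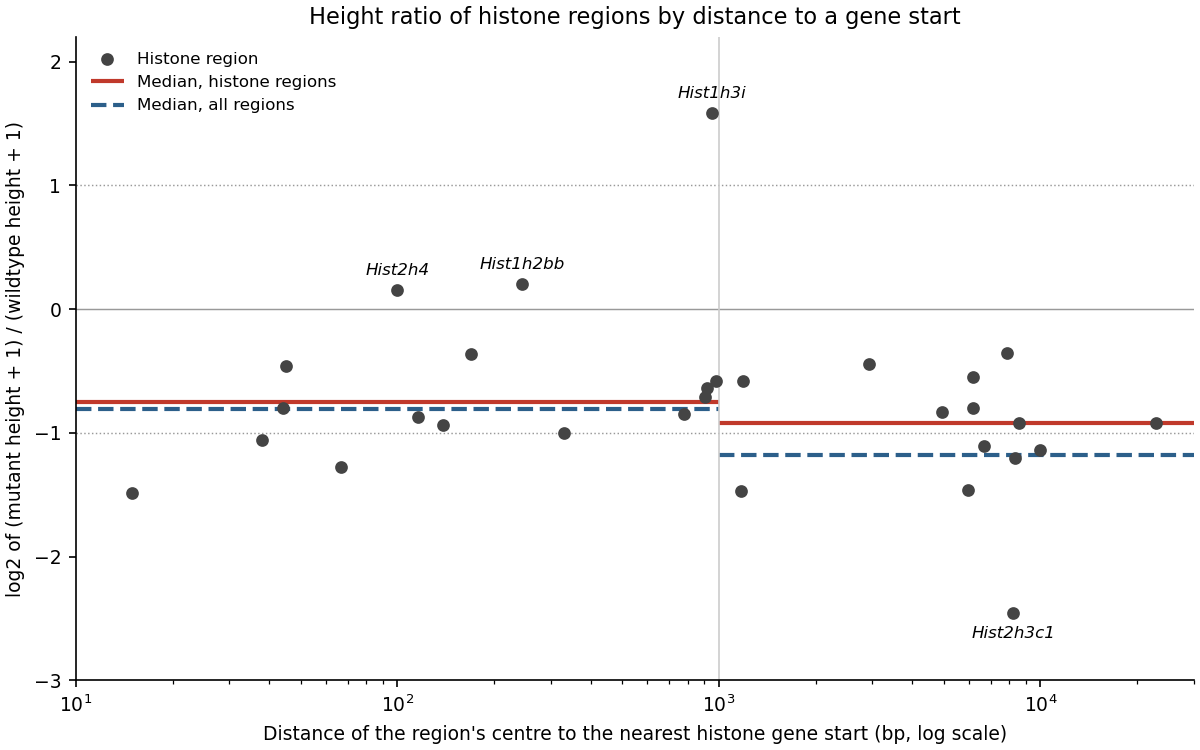
Log2 ratio of mutant to wildtype height (after adding 1) of the 30 regions against the distance of the region's centre to the nearest histone gene start (bp, log scale). Red lines are histone medians within and beyond 1 kb (-0.75 and -0.92), blue dashed lines the medians of all regions there (-0.81 and -1.18), and dotted lines mark a 2-fold difference. For the blue lines distance is to any assigned gene, and regions with no assigned gene count as beyond 1 kb.

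The 23 Hist1 regions stood in 3 blocks on chromosome 13. The first block (4 regions, 9 genes with a region) had median heights of 24 in mutant and 39.5 in wildtype, the second (5 regions, 5 genes) 8 and 24, and the third (14 regions, 24 genes) 15.5 and 28.5. Their median log2 ratios were -0.72, -1.11 and -0.75.

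In the first block, the regions around Hist1h2bl, an H2B gene, differed in ratio. The region at chr13:21709866-21710490, 5965 bp past the start, reached 19 in mutant and 54 in wildtype (log2 ratio -1.46). The region at chr13:21714581-21715320, 1193 bp past it, reached 29 and 44 (log2 ratio -0.58). The mutant height was greater at the second and the wildtype height at the first. Hist1h2ai and Hist1h3h shared both regions, Hist1h2bm the second, and the olfactory receptor gene Olfr1359 the first.

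The fourth region of that block had the highest ratio of the 30. It lay at chr13:21782072-21782821, 951 bp past the start of the H3 gene Hist1h3i and 1892 bp upstream of the H1 gene Hist1h1b. It reached 29 in mutant and 9 in wildtype (log2 ratio 1.58), and 41 of the 31850 regions had a higher one. The mutant height exceeded that of 89.3% of all regions and the wildtype height that of 0.74%. The gene pair Hist1h2an and Hist1h2bp, whose shared start sequence holds a CArG box, was assigned to it from 4772 and 5042 bp away.

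The second block held the highest histone region. At chr13:22028435-22029302, 6684 bp past the start of the H2A gene Hist1h2ah and 7019 bp upstream of the H2B gene Hist1h2bk, it reached 43 in mutant and 94 in wildtype. The log2 ratio of -1.11 was near the median of all regions. These heights exceeded 97.1% of all regions in each library. A neighbour at chr13:22030429-22030817 reached only 8 and 15. Near Hist1h2bj (an H2B gene), a region 1172 bp past the start (chr13:22044150-22044655) reached 8 and 24 and one 7894 bp past it (chr13:22050770-22051478) reached 24 and 31, with log2 ratios of -1.47 and -0.36.

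In the third block the highest region (chr13:23597847-23598480) was assigned to the H2B gene Hist1h2be, 22961 bp past its start, and reached 27 and 52. Beside Hist1h4c, regions at chr13:23697238-23697819 (921 bp past the start) and chr13:23701028-23701730 (2930 bp upstream) reached 24 and 38, and 27 and 37. A region 6177 bp upstream of Hist1h4h (chr13:23524539-23525196) reached 25 and 37. Wildtype was higher at these 4 regions, by log2 ratios of -0.44 to -0.92.

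The region just upstream of Hist1h2bb, an H2B gene divergent from Hist1h3c, held a CArG box. It lay at chr13:23746256-23746722, 245 bp upstream of Hist1h2bb and 968 bp upstream of Hist1h3c, and reached 14 in mutant and 12 in wildtype. It was called in mutant alone, though the heights differ by 2, and the log2 ratio of 0.21 became -0.04 with the average value of the region. The box, CCAAATAAGG, lay 222 bases before the start (chr13:23746512-23746521), and its centre lay 11.5 bp from the mutant summit. Of the 4 windows with a CArG box, this was the only match inside a region. The Hist2h2ac box lay outside the nearby region and 344.5 bp from its wildtype summit.

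**Figure D4:**
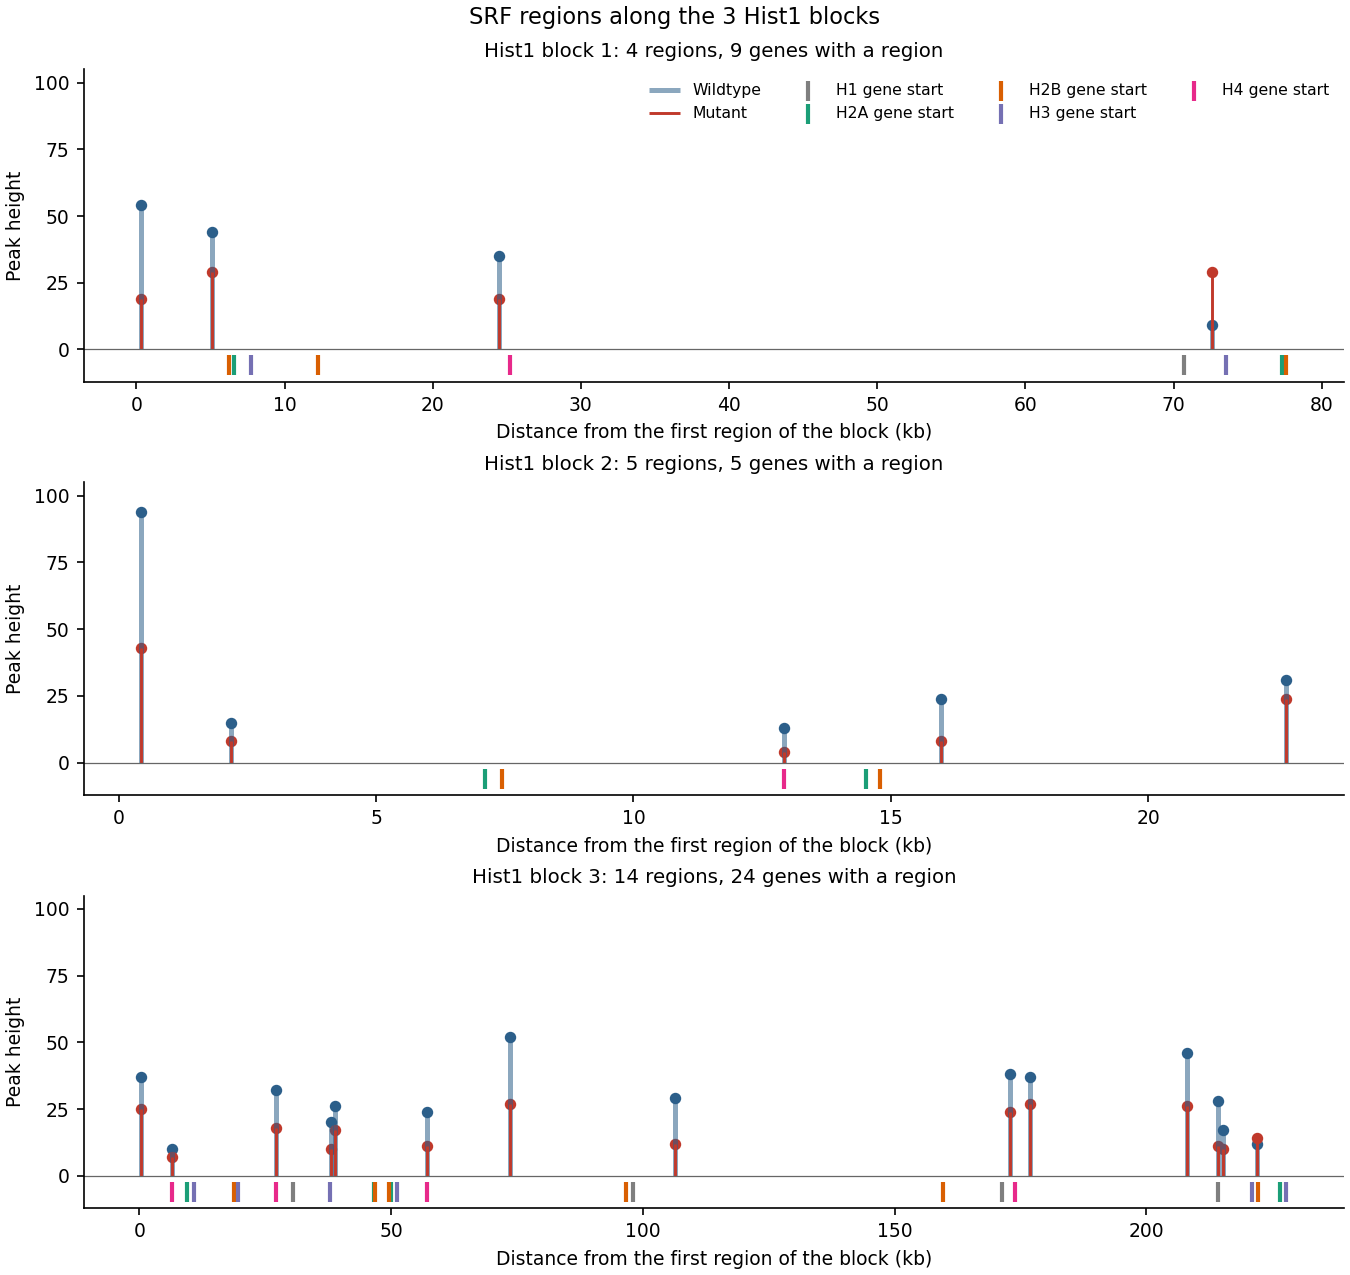
Peak height of the regions along the 3 Hist1 blocks in kb from the first region of each block, wildtype in blue and mutant in red, with ticks under the axis at the starts of members coloured by class. The highest region (43 and 94) opens the second block, and 2 regions are higher in mutant, near the end of the first block (29 and 9) and at the end of the third (14 and 12).

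Outside Hist1, the Hist2 genes on chromosome 3 had 4 regions for 8 genes, with median heights of 14 and 35.5. The lowest ratio of the 30 regions was here, at chr3:96254682-96255159, which reached 9 in mutant and 54 in wildtype (log2 ratio -2.46). It lay 8235 bp from the start of the H3 gene Hist2h3c1 and was shared with Hist2h2aa1 and Hist2h4. Both Hist2h3c1 and Hist2h2aa1 have a near-identical copy with no region. A region 8572 bp past the start of the H2B gene Hist2h2bb (chr3:96277680-96278865), shared with Hist2h3b and the Fc receptor gene Fcgr1, reached 38 and 73. A low region at Hist2h2be, Hist2h2ac and Hist2h2ab (chr3:96221016-96221459) reached 5 and 10. The Hist3 genes on chromosome 11 had 2 regions of 9 and 21 (chr11:58938687-58939221, 48 bp upstream of Rnf187, a ubiquitin ligase gene) and of 11 and 23 (chr11:58954601-58955432, 331 bp past the start of Hist3h2a). Hist3h2ba was assigned to both and the pseudogene Hist3h2bb-ps to the second. Neither was called in mutant.

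Among genes that supply histone mRNA, Lsm11 had the highest region, above every histone cluster region in both libraries. Of the 24 genes listed for transcription and processing of histone mRNA, 22 had a region, 16 an interval in mutant and 22 in wildtype, where 49.6% and 65.5% of all protein-coding genes had an interval. By the highest region of each, 12 of the 22 were at least 2-fold lower in mutant and none was 2-fold higher, against 57.7% lower of all 16697 genes, and the median log2 ratio was -1.03 against -1.08. Lsm11, a subunit of the U7 particle that cuts histone mRNA, had a region 38 bp upstream (chr11:45944506-45945441) of 94 in mutant and 214 in wildtype. E2f2, a cell cycle factor, reached 24 and 76 at 8695 bp upstream, and Pou2f1, which binds the octamer, 23 and 51 at 351 bp upstream. Srrt, a cap-binding partner, reached 18 and 52 at 20836 bp past its start. Eri1, a histone mRNA exonuclease, reached 22 and 56 at 26410 bp past its start. By the nearest region E2f2 reached 32 and 63, Srrt 14 and 27 and Eri1 15 and 31. Npat, the coactivator of the clusters, reached 14 and 15 at its start, and Slbp 16 and 18. By the region nearest the start, 7 of the 22 were 2-fold lower, against 49.9% of all genes, and the median was -0.62, against -0.98. Ccne2 and Cdk2 had no region.

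Of 17 histone genes outside the clusters, which are mostly expressed through the cell cycle, 11 had a region, 8 an interval in mutant (49.6% of all protein-coding genes) and 11 in wildtype (65.5%). At least 2-fold lower were 7 of the 11, with a median of -1.45 by the highest region and -0.97 by the nearest. H1f0 reached 56 and 155 at a region 10350 bp past its start, H3f3b 26 and 52 (336 bp past) and H2afz 17 and 50 (1149 bp past). H2afy2 reached 17 and 49 at 49262 bp past its start, and H3f3c 15 and 46 at 3296 bp past. By the nearest region H1f0 reached 6 and 14, H2afz 12 and 14 and H2afy2 4 and 15. Of 21 histone chaperone genes, 17 had a region, 13 an interval in mutant (49.6% of all protein-coding genes) and 17 in wildtype (65.5%). At least 2-fold lower were 10 of the 17, with a median of -1.0 by the highest region and -0.76 by the nearest. The highest were assigned to Chaf1a (82 and 165), Hjurp (75 and 175), Set (63 and 153), Cabin1 (42 and 74) and Asf1b (36 and 72). They lay 3696 bp upstream of Chaf1a, 121 bp past the start of Hjurp and 275 bp upstream of Asf1b. The Set and Cabin1 regions lay 15973 and 128503 bp past the start. By the nearest region Set reached 8 and 19 and Cabin1 29 and 29. The shares 2-fold lower in these lists stand beside the same 57.7% of all genes. As deposited, wildtype was the higher at the highest region of each of the 10 genes named from the latter lists. By the region nearest the start it was the higher at all of them but Cabin1.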

How the data were processed

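SRF ChIP-seq of whole cornea gave 1 mutant, 1 wildtype and 1 input library, with genotypes taken from the titles. The submitters' processing notes name BWA and mm10. Not given in the sources used here were the tool that called intervals and its threshold, any scaling of libraries and any removal of duplicates. The deposited files hold signal values: the peak value (a whole number, called height here) and the average value of each interval and merged region, with genes assigned and the distance to their start.

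Members and gene lists were chosen with earlier results of these data known. A shared region was counted once. Ratios are log2 of mutant over wildtype height with a pseudocount of 1, so differences of low regions are understated; 2-fold means -1 or less, or 1 or more. For a listed gene the region of highest mean height stood for it, the first listed in a tie. Symbols were matched by gene ID to the RefSeq tables (GRCm38.p6) for 50 of 50 members. Named regions are the 10 highest by mean height, the 5 highest and 5 lowest ratios among regions reaching the median height of all, those called in mutant alone, those outside Hist1, and those of genes with no region within 10 kb; others were named after their values were seen, as were the class pattern and the letters GGTCCG. From each list up to 5 genes of highest mean height are named; Npat and Slbp were added. Identity between windows was the best ungapped match on the same strand with shifts up to 50 bases. Exact binomial and order-statistic 95% intervals cover counting error over regions. The median and share computations were tested on simulated data. The scripts used Python 3.11.15, scipy 1.17.1, pandas 2.3.3, numpy 2.4.6 and matplotlib 3.10.9. Alternatives were a common median for both libraries, the average value, a pseudocount of 5, and narrower sets of regions.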

Additional observations from a re-analysis of the deposited data

How the results depend on the processing

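With 1 library per genotype nothing separates the mutation from variation between animals or libraries. No paired analysis was possible because there were no replicates to pair. After scaling the mutant library by 2.10 to a common median, the median log2 ratio of the histone regions became 0.17 and that of all regions rose by 1.01. The histone regions lay 0.26 above all regions with and without scaling. The size of this gap depended on the measure and the set of regions. By the average value the medians were -0.765 for histone and -0.829 for all regions. For regions called in both libraries they were -0.798 and -0.962, and at or above the median height -0.719 and -1.067. After scaling, the mutant value was the higher at 21 of 30 histone regions and at 43.5% of all. With it, 1 histone region was 2-fold lower (9.30% of all) and 3 were 2-fold higher (4.58% of all). The direction of the median therefore depends on the unknown scaling. The count of regions 2-fold lower was 5 of 20 at or above the median height (55.5% of all such regions), 3 of the 14 called in both libraries (48.2%; 0 higher, 0.0577%), 4 of 16 within 1 kb of a start (39.6%) and 5 of 17 with histone genes alone. The average value of a region had medians of 7.11 in mutant and 11.8 in wildtype, and wildtype heights had a median of 18.5 within 1 kb. With wildtype intervals under the median height left out, 50% of histone regions and 51.4% of all regions were called in wildtype. For the other 29 combinations of a result and a setting, the direction of the histone value itself was kept. Among these, at a promoter distance of 5 kb the near regions exceeded the farther ones by 0.26 log2 units in place of 0.17. The list medians by nearest region are given beside those by highest region. The comparison with all regions did not always keep its direction. Within 1 kb of a start, 43.8% of histone regions and 60.6% of all such regions were called in mutant. The median mutant heights there were 12 and 14, whereas over all distances the histone values were the higher.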

Other observations

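The highest histone region, assigned to Hist1h2ah and Hist1h2bk, overlapped a tRNA gene of the RefSeq table, as did 43 of all 31850 regions (0.135%). The region 921 bp past the start of Hist1h4c had a mutant height of 24 and no mutant interval. Of the 5704 regions with a mutant height of 24 or more, 19 had no mutant interval.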
